A study of Zea mays with 20 samples.

Results

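Of 39656 genes counted in 20 maize RNA libraries, 150 made up the group described here: the genes whose level in the shoot apical meristem (SAM) of the vegetative plant stood highest above their levels in young leaf, tassel primordium and ear primordium. They were chosen by their levels in the wild-type and sibling libraries alone. Counts were divided by the library total to give CPM (counts per 1000000 counts of the library), and the mean SAM level plus 0.5 was divided by the highest of the mean leaf, tassel and ear levels plus 0.5. Of 17543 genes with a mean of at least 3 CPM in sibling SAM, the 150 with the highest of these scores were kept, and they are called SAM-high genes below.

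The SAM is the dome of dividing cells at the shoot tip that forms leaves and renews itself. It turns into the tassel meristem when the plant flowers, whereas ears arise from axillary buds. KNOX homeobox proteins such as KNOTTED1 keep meristem cells undifferentiated, in part by holding cytokinin high and gibberellin low. Among the genes known to act in the vegetative apex of maize, terminal ear1 (te1) and unbranched3 (ub3) affect how leaves are initiated, and delayed flowering1 (dlf1) promotes the switch to flowering.

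The series asked what changes when KNOTTED1 activity is gained or lost, all in inbred B73. Leaf libraries, 2 per genotype, came from 10-day greenhouse seedlings homozygous (Kn1-N/Kn1-N) or heterozygous (Kn1-N/+) for a dominant allele, or wild type (+/+), and held a tube of young leaves 7 to 8 mm long that began 2 to 3 mm above the SAM. Homozygotes for the loss-of-function allele kn1-e1 (kn1-e1/kn1-e1) and their siblings were sampled as SAM (2 libraries each, 15 apices pooled per library, 19-day greenhouse plants), as tassel primordia (3 each, 10 pooled, field) and as ear primordia (2 each, 6 to 8 pooled, field). The sibling libraries are titled wild type, but their genotype label reads kn1-e1/+, so these controls may carry a copy of the mutant allele.

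Several features of the sampling limit these groups. Apices were cut at the base of the P4 leaf primordium, so every SAM library also held the youngest leaves. Mutant tassels (2 to 3 mm) and ears (4 to 5 mm) were shorter than those of siblings (4 to 5.5 mm and 7 to 8 mm), and genotype and size cannot be told apart there. Tissue and place of growth cannot be told apart between SAM and the field-grown tassels and ears. Because the tissue was sequenced in bulk, fewer cells of a type and less RNA per cell cannot be told apart either.

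The libraries held 16068246 to 20722952 counts. The targeted gene, kn1 (GRMZM2G017087), followed the labels. It stood at 33.6 and 37.2 CPM in sibling SAM against 12.0 and 10.2 CPM in kn1-e1 SAM. Homozygous leaf held 9.79 and 10.8 CPM, heterozygous leaf 5.02 and 6.10 CPM and wild-type leaf 0.0513 and 0 CPM. Mean levels were 200 CPM in sibling tassel and 131 CPM in sibling ear, against 46.3 and 34.5 CPM in kn1-e1. In siblings kn1 was thus lower in SAM than in tassel or ear. The sibling SAM pair, which chose the members, differed more than any other pair of replicates, with a chi-square per gene of 12.3 against 1.83 to 5.50 elsewhere. Without sibling SAM replicate 1 the rule kept 134 of the 150 genes, and without replicate 2 it kept 132.

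The defining markers of the tissue were checked against the label. A list of 17 shoot meristem genes summed to 378 to 421 CPM in the 4 SAM libraries, against 297 to 336 CPM in leaf and 1065 to 1301 CPM in tassel and ear, and none of the 17 was among the SAM-high genes. The gene of that list with 0 counts in SAM was a catalase gene (Cat0) that shares a synonym with compact plant2. The summed level was thus above leaf and below the inflorescences in the apices, without overlap in either case. The list was not highest in the SAM, so it does not set the SAM apart from the inflorescences. The group is therefore named here by its rule and not by a cell type. A list of 17 leaf primordium genes summed to 805 to 847 CPM in SAM, 451 to 508 CPM in leaf, 519 to 610 CPM in tassel and 802 to 1007 CPM in ear, with every gene detected in SAM. A list of 25 green-leaf genes summed to 353 to 365 CPM in SAM, 370 to 385 CPM in tassel and ear and 1316 to 1574 CPM in leaf, with 6 of the 25 at 0 counts in sibling SAM and 7 in kn1-e1 SAM. None of the leaf primordium or green-leaf genes was a member. As the members were 150 of 39656 genes, lists this short need not hold any, and nothing is read from these absences. A list of 58 inflorescence and flower genes held 2 members, zmm19 and ub3. It summed to 1173 to 1310 CPM in SAM, 705 to 754 CPM in leaf and 1551 to 1898 CPM in tassel and ear. How far the makeup of the samples sets the levels of the members was not tested.

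Scores ran from 181 down to 2.60, with a median of 3.73. Of the 150 genes, 20 scored over 10, 28 between 5 and 10, 61 between 3 and 5, and 41 under 3. The last genes inside were GRMZM2G154124 (2.62), te1 (2.60) and GRMZM2G033724 (2.60), and the first outside were GRMZM2G158188 (2.59), GRMZM2G079629 (2.59) and GRMZM2G160466 (2.56), so the lower edge of the group is a cut through a continuous range. Mean levels in sibling SAM ran from 3.07 to 541 CPM with a median of 16.4 CPM. For 22 members the mean was under 5 CPM and for 16 it was over 100 CPM.

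The members differed in where they came next. The second-highest wild-type or sibling group was the tassel for 63 genes, the ear for 55 and the leaf for 32. Levels were under 1 CPM in all of leaf, tassel and ear for 35 members, under 1 CPM in leaf only for 26, and at least 1 CPM in all of these groups for 68. Together the 150 genes took 0.617 and 0.626% of all counts in the sibling SAM libraries and 0.574 to 0.608% in kn1-e1 SAM, against 0.0940 to 0.132% in the libraries of the other 7 groups. In this summed share the 4 SAM libraries stood apart from the other 16, whatever the genotype.

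**Figure D1:**
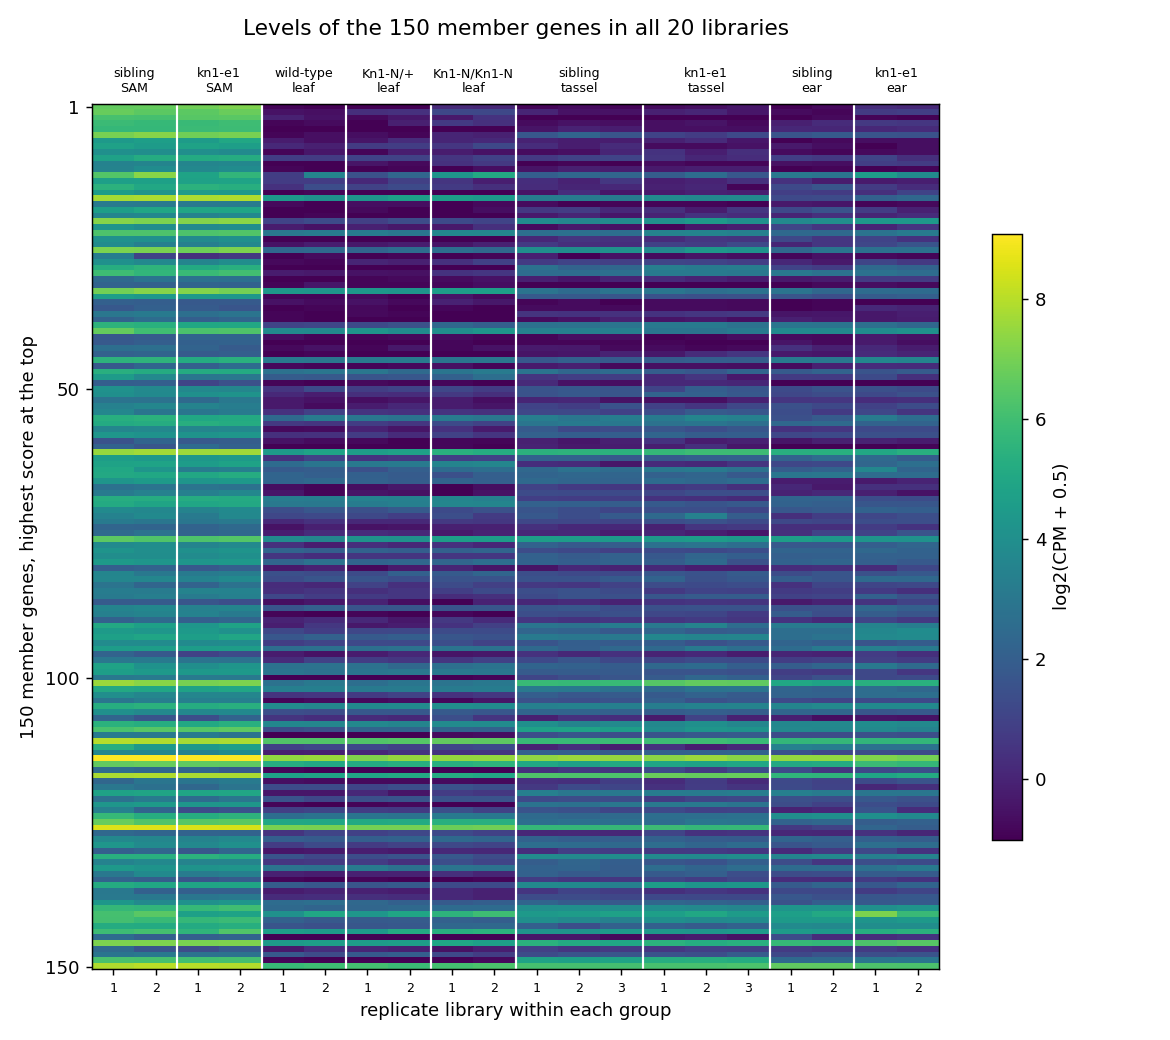
Levels of the 150 SAM-high genes (rows, highest score at the top) in the 20 libraries (columns, grouped), as log2(CPM + 0.5). The 4 SAM columns are brighter than the rest of their row for most genes, including the kn1-e1 SAM columns, which did not choose the members.

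Only the libraries that the rule did not use can test the pattern. These were the 11 mutant libraries: kn1-e1 SAM, tassel and ear, and heterozygous and homozygous Kn1-N leaf. In the comparisons with leaf, tissue, allele and plant age differ together. In 1 edgeR fit of 23260 genes, 146 of the 150 members were called higher in kn1-e1 SAM than in kn1-e1 tassel at an adjusted p under 0.05, against 26.9% of all genes. Against kn1-e1 ear 145 members were higher and 1 was lower (24.0% of all genes were higher and 25.6% lower). Against heterozygous leaf 148 were higher and 0 lower (34.7 and 37.4% of all genes). Against homozygous leaf 144 were higher and 1 was lower (33.6% and 36.4% of all genes). In all 4 comparisons together 141 members were higher, against 9.79% of genes.

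The sizes of these differences were large. The median log2 difference of the 150 members was 2.40 against tassel, 2.48 against ear, 3.63 against heterozygous leaf and 3.39 against homozygous leaf, while the median of all genes tested was -0.01, -0.01, -0.01 and -0.00. Both kn1-e1 SAM libraries lay above all 9 of the other mutant libraries for 144 members, against 15.8% of all genes. Taken group by group, they lay above every heterozygous leaf library for 149 members and below for 0 (47.3 and 38.7% of all genes), and above every homozygous leaf library for 146 (48.6%). Of the members, 138 passed the filter on low counts without help from the SAM libraries, and 129 of these were higher in all 4 comparisons.

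The score itself was also recomputed in the unused libraries, as kn1-e1 SAM over the highest of the 4 other mutant groups. It had a median of 3.23 among the members, from 0.287 to 110, and 127 members exceeded 2, as did 1.29% of the 17543 genes with at least 3 CPM in sibling SAM. For 113 members the recomputed ratio was below the score that chose them, and its median over the score was 0.801. It was above 1 for all members but the heat shock gene Hsp70.

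**Figure D2:**
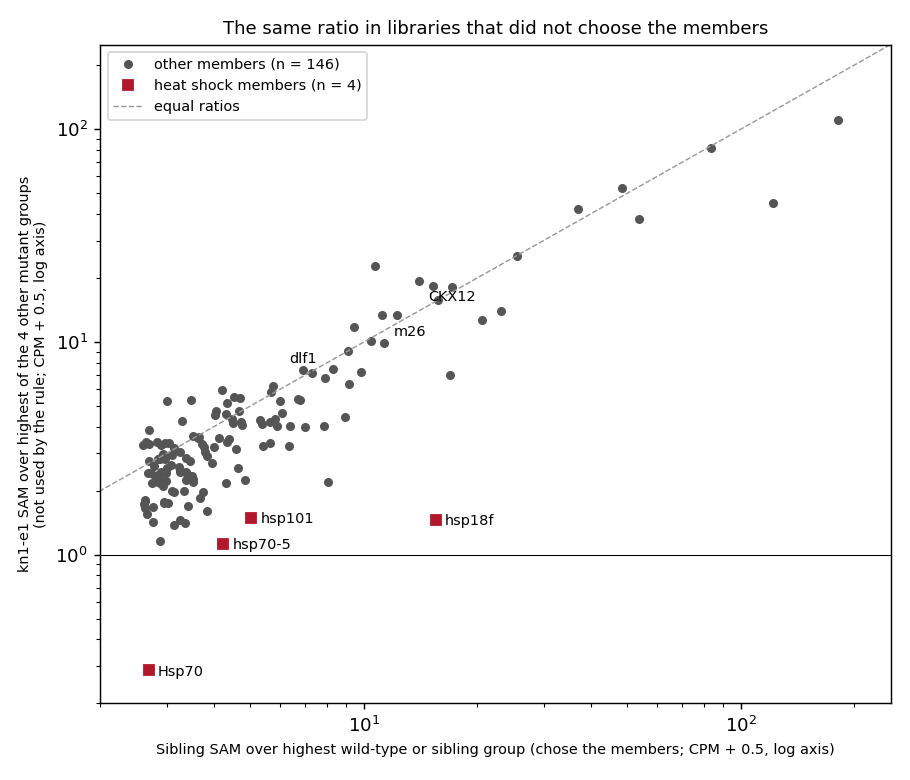
Each point is 1 of the 150 SAM-high genes; the x axis is the score that chose it and the y axis is the same ratio in the mutant libraries the rule did not use, both with 0.5 CPM added and on log axes. Of the 150 genes, 113 lie below the dashed line of equal ratios, and the heat shock genes (red) lie well below it, with Hsp70 at 0.287.

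Which genes are these? The reference table matched 92 of the 150 identifiers (61.3%), 1 of them to more than 1 gene, and gave 31 of them a gene name. The named members were transcription factors, enzymes of cytokinin breakdown, carriers and response factors of auxin, enzymes of sugar, starch and pigment metabolism, and chaperones. They are described below from te1 and ub3 through the other regulators and the hormone genes to the enzymes, then the unnamed genes of high score, and last the chaperones. None of the 42 homeobox genes matched by name, the 5 gibberellin genes, the 23 histone and cell-cycle genes or the 34 cell wall genes was a member. As the members were 150 of 39656 genes, lists this short need not hold any, and nothing is read from these absences.

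The gene te1 (GRMZM2G085113) encodes an RNA-binding protein that restrains leaf initiation. It stood at 72.9 and 70.3 CPM in sibling SAM and 64.4 and 68.4 CPM in kn1-e1 SAM. In sibling tassel it was at 27.2, 25.97 and 28.4 CPM and in kn1-e1 tassel at 38.6, 39.4 and 36.7 CPM. Sibling ear had 5.00 and 5.15 CPM and kn1-e1 ear 7.29 and 7.35 CPM. The 6 leaf libraries held 0 to 2 counts of te1 each, so its order was SAM, tassel, ear, leaf with no overlap between tissues. Against kn1-e1 tassel the log2 difference was 0.80 ± 0.08 (SE; edgeR adjusted p = 3.2e-07), and against kn1-e1 ear it was 3.21 ± 0.10 (adjusted p = 7.7e-13). Heterozygous leaf had no count, so kn1-e1 SAM was at least 914-fold higher, taking 3 counts over the group as the floor. With 2 counts in homozygous leaf the ratio was 1236, with an exact 95% interval of 342 to 10208 that covers counting error only.

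The gene ub3 (GRMZM2G460544) encodes an SBP-box transcription factor known for limiting the number of lateral primordia. It stood at 189 and 155 CPM in sibling SAM, 127 and 136 CPM in kn1-e1 SAM, 86.1, 101 and 98.0 CPM in kn1-e1 tassel and 54.6, 53.9 and 54.7 CPM in sibling tassel. Ear held 31.3 and 27.6 CPM in siblings and 40.6 and 42.1 CPM in kn1-e1, and the leaf libraries held 5.75 to 8.03 CPM. As for te1, the tissues ran SAM, tassel, ear, leaf, and no library of one tissue reached the next. In the unused libraries kn1-e1 SAM exceeded kn1-e1 tassel by 0.47 ± 0.07 in log2 (edgeR adjusted p = 2.6e-05) and exceeded homozygous leaf by 4.04 ± 0.10 (adjusted p = 2.9e-15).

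The MADS-box members were zmm19 (GRMZM2G370777), the gene at the Tunicate1 locus whose ectopic expression in the ear gives pod corn, and m26 (GRMZM2G046885). The gene zmm19 stood at 377 and 376 CPM in sibling SAM and 363 and 355 CPM in kn1-e1 SAM. It was at 114 to 134 CPM in the 6 leaf libraries, 51.6 to 59.4 CPM in the 6 tassel libraries, 1.09 and 1.49 CPM in sibling ear and 4.34 and 3.44 CPM in kn1-e1 ear. No 2 tissues overlapped, and the inflorescences were far apart from each other. The log2 difference of kn1-e1 SAM was 1.42 ± 0.06 over heterozygous leaf (edgeR adjusted p = 3.9e-12), 2.71 ± 0.06 over kn1-e1 tassel (2.5e-15) and 6.55 ± 0.10 over kn1-e1 ear (3.1e-17).

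For m26 the sibling SAM held 211 and 222 CPM and kn1-e1 SAM 219.8 and 237 CPM. Leaf was next with 15.5 to 24.5 CPM over the 6 libraries, then kn1-e1 tassel with 13.8, 12.2 and 13.2 CPM and sibling tassel with 9.01, 8.97 and 8.15 CPM. Ear was lowest, with 1.87 and 1.96 CPM in siblings and 3.72 and 4.68 CPM in kn1-e1. The order of tissues matched that of zmm19, with leaf above tassel and tassel above ear. Kn1-e1 SAM exceeded homozygous leaf by 3.22 ± 0.11 in log2 (edgeR adjusted p = 6.9e-14) and kn1-e1 ear by 5.80 ± 0.13 (3.7e-15). Of 34 MADS-box genes tested, 5 were called higher in kn1-e1 SAM than in all 4 other mutant groups (9.79% of all genes); the other 3, m5, m20 and m21, fell short of the score.

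The gene dlf1 (GRMZM2G067921) encodes a bZIP protein that acts in the apex downstream of the floral signal. It was at 136 and 132 CPM in sibling SAM and 115 and 137 CPM in kn1-e1 SAM, at 12.6 to 19.5 CPM in the 6 tassel libraries, at 4.76 to 7.15 CPM in the 4 ear libraries and at 4.29 to 5.74 CPM in the 6 leaf libraries. The SAM libraries were far above the rest, tassel was second, and ear and leaf overlapped. The log2 difference of kn1-e1 SAM over kn1-e1 tassel was 2.94 ± 0.12 (edgeR adjusted p = 5.1e-12). Of the 26 tested genes in the phase change and flowering list, which holds dlf1, 7 were higher and 11 lower in kn1-e1 SAM than in kn1-e1 tassel (26.9 and 27.9% of all genes).

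The basic helix-loop-helix members were bHLH173, bHLH105 and bHLH33. For bHLH173 (GRMZM5G882527) the SAM libraries held 122 and 152 CPM (sibling) and 148 and 127 CPM (kn1-e1), wild-type leaf 20.2 and 19.3 CPM, heterozygous leaf 19.7 and 18.8 CPM and homozygous leaf 24.9 and 25.6 CPM, while the 10 inflorescence libraries held 4.63 to 7.18 CPM. It was the only one of the 3 with leaf above the inflorescences. For bHLH105 (GRMZM2G082586) SAM held 19.8 to 24.2 CPM, tassel and ear 3.00 to 5.51 CPM and leaf 0.820 to 1.48 CPM, and for bHLH33 (GRMZM2G015666) SAM held 31.7 to 36.9 CPM against 2.24 to 7.41 CPM in all other libraries. Each of the 3 was higher in kn1-e1 SAM than in all 4 other mutant groups, by 2.32 to 4.73 in log2 (edgeR, largest adjusted p = 4.8e-09). Of 40 tested genes with a bHLH name, 8 were higher in all 4 comparisons, against 9.79% of all genes, and these 3 members are among the 8.

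The other regulators were sbp23, EREB161, LOB14 and OFP24. For sbp23 (GRMZM2G126018), an SBP-box gene like ub3, SAM held 24.8 to 30.4 CPM, kn1-e1 ear 12.9 and 14.2 CPM, kn1-e1 tassel 12.2, 11.1 and 11.5 CPM, sibling tassel 8.47, 7.49 and 7.89 CPM, sibling ear 5.79 and 6.74 CPM and leaf 2.43 to 3.86 CPM. For EREB161 (GRMZM2G021573), of the AP2/ERF family, SAM held 134 to 139.9 CPM, ear 50.8 to 88.0 CPM, tassel 30.8 to 44.3 CPM and leaf 22.2 to 29.6 CPM, the 4 tissues not overlapping. LOB14 (GRMZM2G044902), of the LOB-domain family that acts at organ boundaries, had 18.9 to 33.0 CPM in SAM, 5.37 to 10.9 CPM in tassel and ear and 0.292 to 1.36 CPM in leaf. OFP24 (GRMZM2G100133), of the OVATE family of transcriptional repressors, was at 8.45 to 10.8 CPM in SAM and 1.13 to 3.38 CPM in the inflorescences, with at most 1 count in each leaf library. Its ratio of kn1-e1 SAM to homozygous leaf was 352 on 341 counts against 1 (exact 95% interval 62.7 to 13925).

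The list of other transcription factors, which leaves out homeobox genes, holds 6 of these members. Of its 225 tested genes, 52 were higher and 103 lower in kn1-e1 SAM than in kn1-e1 tassel, against 26.9 and 27.9% of all genes, and the median log2 difference was -0.28. Against homozygous leaf 77 were higher and 92 lower (33.6 and 36.4% of all genes). Of 23 tested SBP-box genes 6 were higher in all 4 comparisons, against 9.79% of all genes, and 2 of the 6 are members chosen for high SAM levels.

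**Figure D3:**
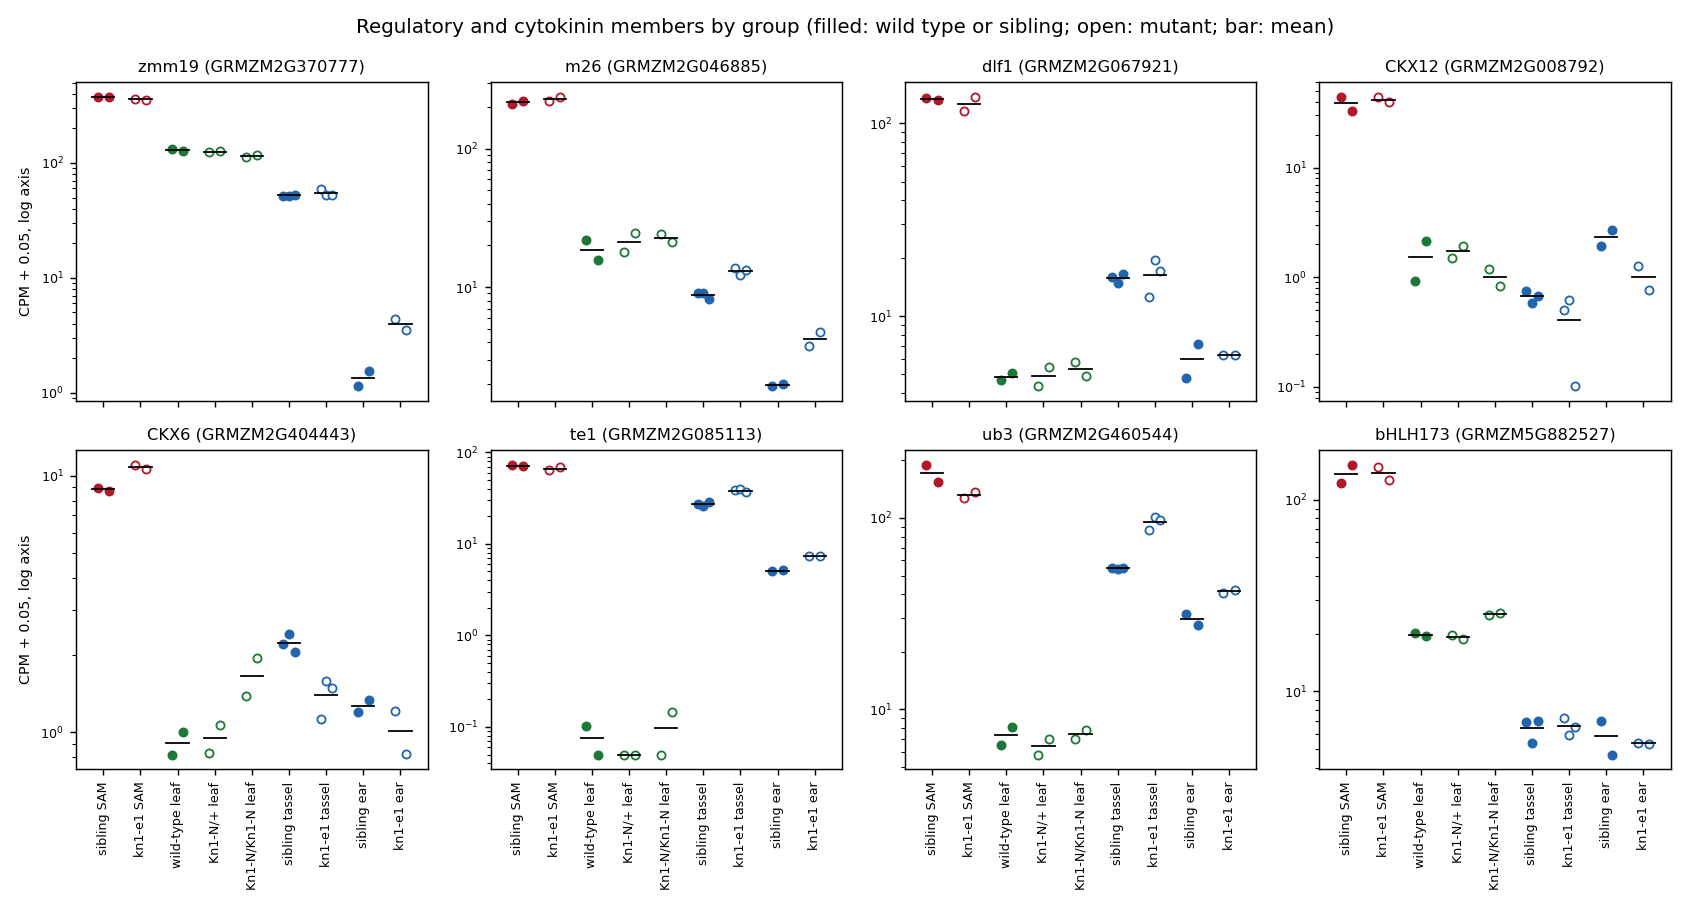
CPM plus 0.05 on a log axis for 8 regulatory and cytokinin genes in each of the 9 groups (points are libraries, bars are group means, filled for wild type or sibling and open for mutant). The SAM points are the highest in every panel, while the order of leaf, tassel and ear differs: zmm19 and m26 are lowest in ear, te1 and ub3 lowest in leaf.

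Cytokinin oxidases degrade cytokinin, the hormone that KNOX proteins raise, and CKX12 and CKX6 were both SAM-high. CKX12 (GRMZM2G008792) stood at 44.3 and 32.7 CPM in sibling SAM and 43.8 and 39.6 CPM in kn1-e1 SAM, and at 0.0512 to 2.68 CPM in the other 16 libraries. Within that low range sibling ear (1.87 and 2.68 CPM) was above kn1-e1 ear (1.21 and 0.720 CPM). The log2 difference of kn1-e1 SAM was 6.88 ± 0.25 over kn1-e1 tassel (edgeR adjusted p = 1.1e-12), 5.45 ± 0.24 over ear, 4.53 ± 0.22 over heterozygous leaf and 5.33 ± 0.25 over homozygous leaf.

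CKX6 (GRMZM2G404443) stood at 8.93 and 8.65 CPM in sibling SAM and 10.96 and 10.5 CPM in kn1-e1 SAM. Sibling tassel held 2.16, 2.38 and 2.00 CPM and kn1-e1 tassel 1.07, 1.53 and 1.43 CPM, ear 0.771 to 1.29 CPM, and leaf 0.769 to 1.02 CPM outside homozygotes and 1.33 and 1.89 CPM in homozygotes. Both kn1-e1 SAM libraries were above both sibling SAM libraries, while in tassel the order was the opposite. Kn1-e1 SAM exceeded kn1-e1 tassel by 2.99 ± 0.20 in log2 (edgeR adjusted p = 3e-09). These were the only 2 of 5 tested CKX genes higher in all 4 comparisons (9.79% of all genes), and both were chosen for high SAM levels. The cytokinin list as a whole had 8 of 29 tested genes higher and 11 lower than in kn1-e1 tassel (26.9 and 27.9% of all genes). Against homozygous leaf 16 were higher and 6 lower (33.6 and 36.4%).

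Auxin members were ARF5 and PIN8. ARF5 (GRMZM5G808366), an auxin response factor, had 6.24 and 6.91 CPM in sibling SAM and 6.83 and 6.24 CPM in kn1-e1 SAM, 0.767 to 1.51 CPM in tassel, 0.309 to 0.823 CPM in ear and 0 to 0.290 CPM in leaf. PIN8 (GRMZM5G839411), of the PIN family of auxin carriers, had 10.7 to 13.5 CPM in SAM, 3.37 to 4.09 CPM in tassel, 1.70 to 2.41 CPM in ear and 0.410 to 0.971 CPM in leaf, so both genes ran SAM, tassel, ear, leaf, with the ranges of tassel and ear overlapping for ARF5. ARF5 exceeded kn1-e1 tassel by 2.72 ± 0.26 in log2 and PIN8 by 1.61 ± 0.15 (edgeR adjusted p = 1.9e-07 and 1.6e-07). The auxin list of 46 tested genes had 13 higher and 29 lower in kn1-e1 SAM than in kn1-e1 tassel (26.9 and 27.9% of all genes).

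Members of sugar and starch metabolism were mips2, wx1 and sh2. For mips2 (GRMZM2G004528), an inositol phosphate synthase, SAM held 533 to 542 CPM and the other 16 libraries 125 to 191 CPM, with leaf, tassel and ear overlapping. The starch genes, best known from the endosperm, were low throughout. Waxy1 (wx1, GRMZM2G024993), a granule-bound starch synthase, had 4.54 and 7.03 CPM in sibling SAM, 7.01 and 8.13 CPM in kn1-e1 SAM, 0.665 to 2.47 CPM in the inflorescences and 0.0968 to 0.154 CPM in leaf. Shrunken2 (sh2, GRMZM2G429899), the large subunit of ADP-glucose pyrophosphorylase, had 5.30 to 8.21 CPM in SAM and 1.13 to 2.90 CPM elsewhere. In the unused libraries wx1 exceeded its level in ear by 1.82 ± 0.23 and sh2 by 1.29 ± 0.22 in log2 (edgeR adjusted p = 6.5e-06 and 0.00011). Of the 30 genes in the endosperm and seed list 23 had no count in sibling SAM, and sh2 was its 1 member here.

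Anthocyaninless1 (a1, GRMZM2G026930), the dihydroflavonol reductase of anthocyanin synthesis, lies close to sh2. It stood at 13.5 and 14.9 CPM in sibling SAM, 11.3 and 12.9 CPM in kn1-e1 SAM, 3.99, 3.11 and 3.42 CPM in sibling tassel, 6.28, 6.87 and 5.68 CPM in kn1-e1 tassel, 2.89 to 4.37 CPM in ear and 0.370 to 0.846 CPM in leaf. SAM was above all other libraries, and kn1-e1 tassel was above sibling tassel without overlap. The margin of kn1-e1 SAM over kn1-e1 tassel, 0.95 ± 0.15 in log2, was small beside that over homozygous leaf, 3.97 ± 0.23 (edgeR adjusted p = 3.9e-05 and 1.1e-10).

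Further named members were mlo3, mlo5, gst20, NR, CBL5, grp3 and mrpi2. The MLO proteins are membrane proteins known from powdery mildew susceptibility. For mlo5 (GRMZM2G471142) sibling SAM held 45.7 and 46.5 CPM, kn1-e1 SAM 36.1 and 42.2 CPM, kn1-e1 ear 12.2 and 11.2 CPM, sibling ear 8.44 and 7.77 CPM, leaf 7.13 to 8.56 CPM and tassel 2.97 to 3.75 CPM. For mlo3 (GRMZM2G031331) sibling SAM held 27.7 and 28.1 CPM, kn1-e1 SAM 23.5 and 27.3 CPM, homozygous leaf 11.1 and 11.7 CPM, heterozygous leaf 7.84 and 8.37 CPM, wild-type leaf 5.18 and 7.03 CPM, ear 1.69 to 5.91 CPM and tassel 0.263 to 0.972 CPM. Both were lowest in tassel, and in mlo3 the leaf genotypes did not overlap. These were the only 2 of 9 tested MLO genes higher in all 4 comparisons (9.79% of all genes), and both were chosen for high SAM levels.

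The glutathione transferase gene gst20 (GRMZM2G056388) had 7.50 and 8.34 CPM in sibling SAM, 5.95 and 6.93 CPM in kn1-e1 SAM, 0.842 to 1.07 CPM in tassel, 0.241 to 0.411 CPM in ear and 0 to 0.0974 CPM in leaf. With no count in homozygous leaf, kn1-e1 SAM was at least 80.1-fold higher. NR (GRMZM5G878558) had 39.2 and 42.5 CPM in sibling SAM, 31.3 and 34.2 CPM in kn1-e1 SAM, 7.18 to 11.6 CPM in tassel, 4.92 to 8.61 CPM in leaf, 2.29 and 3.24 CPM in sibling ear and 8.54 and 5.40 CPM in kn1-e1 ear. CBL5 (GRMZM2G041729), a calcium sensor of the calcineurin B-like family, had 8.19 to 10.0 CPM in SAM and 0.725 to 3.81 CPM elsewhere. The gene grp3 (GRMZM2G154954), for a glycine-rich protein, had 7.71 to 8.25 CPM in SAM, 3.22, 4.60 and 3.79 CPM in kn1-e1 tassel, 1.63 to 2.63 CPM in sibling tassel and ear and at most 1 count in a leaf library. The gene mrpi2 (GRMZM2G105224) had 33.4 to 43.2 CPM in SAM and 11.2 to 15.96 CPM in the other 16 libraries.

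Most of the genes of highest score carried no gene name, so no role is given for them. GRMZM2G147241, rank 1 by score, had 1927 and 1668 raw counts in sibling SAM and 1996 and 2652 in kn1-e1 SAM. Wild-type leaf held 1 and 0 counts, heterozygous leaf 0 and 0, sibling tassel 1, 2 and 1, kn1-e1 tassel 2, 3 and 5, and sibling ear 0 and 2, whereas homozygous leaf held 11 and 12 and kn1-e1 ear 15 and 12. The gene was thus near 0 outside the SAM except for low counts in homozygous leaf and kn1-e1 ear. Kn1-e1 SAM was at least 1772-fold above heterozygous leaf, taking 3 counts as the floor, and its log2 difference was 7.56 ± 0.15 over homozygous leaf (edgeR adjusted p = 1e-15).

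GRMZM2G034385, rank 2 by score, had 2014 and 1490 counts in sibling SAM and 1575 and 2064 in kn1-e1 SAM. Leaf counts were 4 and 3 in wild type, 16 and 18 in heterozygotes and 29 and 36 in homozygotes, tassel counts 4 to 10, and ear counts 2 and 1 in siblings and 25 and 26 in kn1-e1. The leaf genotypes did not overlap, nor did the ear genotypes. GRMZM2G081515, rank 4 by score, had 850 to 1176 counts in SAM, 1 and 2 in wild-type leaf, 0 and 9 in heterozygous and 19 and 17 in homozygous leaf, 2 to 4 in tassel, and 7 and 13 in sibling and 23 and 20 in kn1-e1 ear. GRMZM2G061499, rank 11 by score, had 180 to 230 counts in SAM, none in wild-type leaf, 5 and 2 in heterozygous and 14 and 23 in homozygous leaf, 0 to 2 in tassel, and 3 and 3 in sibling and 28 and 23 in kn1-e1 ear. All 4 of these genes had higher counts in homozygous than wild-type leaf and in kn1-e1 than sibling ear, without overlap. Of all genes, 27.2% were higher in this way in leaf and 39.9% in ear, and the share with both was not counted. GRMZM2G459645 and GRMZM2G040517, also of high score, overlapped in both comparisons. Low wild-type leaf and sibling ear levels were part of the rule, so nothing is read from this pattern.

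Some top genes were not detected in a whole tissue at this depth. GRMZM2G040517, rank 5 by score, had 977 and 839 counts in sibling SAM and 990 and 1135 in kn1-e1 SAM, 3 to 9 in tassel, 10 to 13 in ear, and no count in any of the 6 leaf libraries. Kn1-e1 SAM was at least 730.2-fold above homozygous leaf. GRMZM2G459645, rank 3 by score, had 1335 and 1091 counts in sibling SAM and 1483 and 1714 in kn1-e1 SAM, 2 to 18 in leaf, 0 to 2 in ear and none in the 6 tassel libraries, which puts kn1-e1 SAM at least 1622-fold above kn1-e1 tassel. GRMZM2G399072, rank 6 by score, had 120.1 to 150.2 CPM in SAM, 1.25 to 4.28 CPM in tassel, 2.42 to 3.14 CPM in ear and 0.0484 to 0.544 CPM in leaf. For the remaining unnamed genes among the first 20 (GRMZM2G101745, GRMZM2G374986, GRMZM2G010176, GRMZM2G108166, GRMZM2G480386, GRMZM2G344857, GRMZM2G122340, GRMZM2G095382, GRMZM2G078798 and GRMZM2G164090), SAM libraries held 7.95 to 37.6 CPM and the other libraries 0 to 2.47 CPM. All of these genes were higher in kn1-e1 SAM than in all 4 other mutant groups.

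Tassel and ear differed by 4 times or more, with 0.5 CPM added, for 4 members in the sibling libraries. The share of all genes that did so was not counted. The rule used both groups, so nothing is read from this count. These 4 members were chosen for mention after their values were seen. Tassel was higher for zmm19, te1 and GRMZM2G081928, the last at 4.46 CPM in tassel and 0.361 CPM in ear, and ear was higher for GRMZM2G377694, at 9.94 CPM against 0.531 CPM in tassel. For GRMZM2G377694 sibling SAM held 39.3 and 21.7 CPM and kn1-e1 SAM 20.4 and 24.9 CPM.

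The heat shock members behaved differently from most of the rest, as did some unnamed members given further below. They were hsp18f (GRMZM2G083810), a small heat shock protein, hsp101 (GRMZM2G360681), a disaggregating chaperone, and the HSP70 chaperone genes hsp70-5 (GRMZM5G802801) and Hsp70 (GRMZM2G310431). The level of hsp18f was 82.4 and 156 CPM in sibling SAM and 27.9 and 48.8 CPM in kn1-e1 SAM, 18.9 and 33.2 CPM in homozygous leaf, 2.34 and 4.499 CPM in heterozygous leaf, 1.28 and 11.1 CPM in wild-type leaf, 2.86 to 5.34 CPM in tassel, 7.60 and 6.84 CPM in sibling ear and 23.2 and 13.7 CPM in kn1-e1 ear. The SAM genotypes did not overlap, and kn1-e1 SAM overlapped homozygous leaf. The level of Hsp70 was 68.2 and 91.4 CPM in sibling SAM and 26.2 and 28.2 CPM in kn1-e1 SAM, 45.2 and 60.6 CPM in homozygous leaf, 16.6 to 31.2 CPM in the other leaf libraries, 21.1 to 31.3 CPM in tassel, 25.6 and 33.0 CPM in sibling ear and 136 and 55.9 CPM in kn1-e1 ear. In the mutant libraries Hsp70 was therefore highest in ear and not in SAM.

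For hsp101 sibling SAM held 22.9 and 13.1 CPM, kn1-e1 SAM 7.31 and 7.45 CPM, leaf 2.53 to 5.78 CPM, tassel 0.307 to 1.32 CPM and ear 0.771 to 1.88 CPM. For hsp70-5 sibling SAM held 31.3 and 18.5 CPM, kn1-e1 SAM 8.90 and 9.66 CPM, kn1-e1 tassel 7.69, 8.52 and 6.55 CPM, sibling tassel 4.75 to 6.39 CPM, leaf 2.24 to 5.73 CPM, sibling ear 3.38 and 4.17 CPM and kn1-e1 ear 12.1 and 4.22 CPM. All 4 heat shock genes are among the 9 members that were not higher in kn1-e1 SAM in all 4 comparisons. Hsp70 was lower in kn1-e1 SAM than in kn1-e1 ear, by -1.79 ± 0.29 in log2 (edgeR adjusted p = 7.8e-05), and than in homozygous leaf, by -1.09 ± 0.30 (0.004). The difference of hsp18f from homozygous leaf was 0.43 ± 0.28 (adjusted p = 0.18), that of hsp101 from homozygous leaf 0.49 ± 0.27 (0.12), and that of hsp70-5 from tassel 0.29 ± 0.28 (0.39), from ear 0.21 ± 0.30 (0.59) and from homozygous leaf 0.64 ± 0.32 (0.085).

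The difference between the sibling and kn1-e1 SAM libraries ran through the heat shock list, which was chosen with earlier results of these data known. Of its 15 genes, 14 had a count in SAM. In 10, of which 4 are members chosen for high sibling SAM levels, both sibling SAM libraries were above both kn1-e1 SAM libraries (19.4% of all genes). None was lower in both (14.6% of all genes). Summed over the list the level was 4435 and 4368 CPM in sibling SAM, 3247 and 3298 CPM in kn1-e1 SAM, 2924 to 3965 CPM in ear, 4092 to 4375 CPM in tassel and 3444 to 3835 CPM in leaf. GRMZM2G340251, not a member, made up most of this sum, at 2756 and 2627 CPM in sibling SAM and 2089 and 2152 CPM in kn1-e1 SAM. Because sibling SAM chose the 4 members and the list was chosen with results known, nothing is read from this difference. The part of handling or growth in it was not tested.

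**Figure D4:**
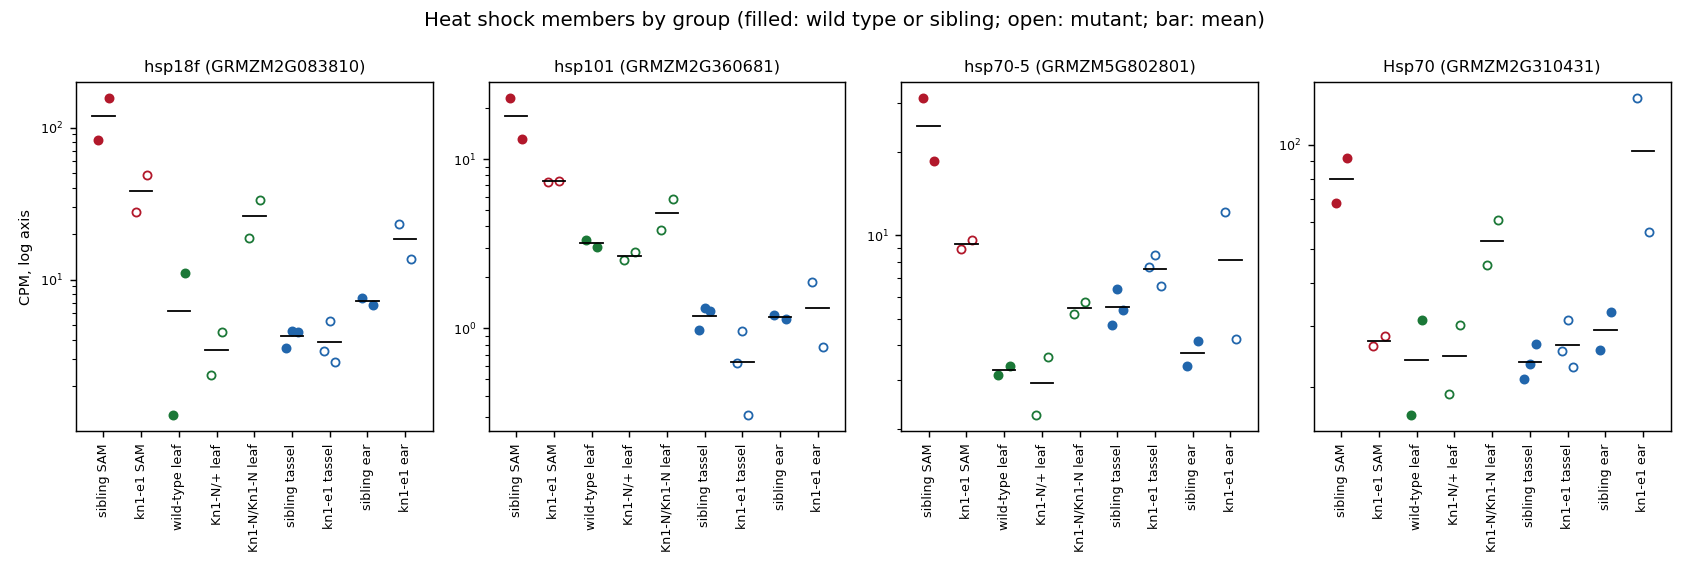
CPM on a log axis for the 4 heat shock genes among the SAM-high genes in the 9 groups (points are libraries, bars are group means, filled for wild type or sibling and open for mutant). In each panel both sibling SAM points lie above both kn1-e1 SAM points, and Hsp70 is highest in a kn1-e1 ear library at 136 CPM.

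The other 5 exceptions had no name. GRMZM2G125529 stood at 10.0 and 4.23 CPM in sibling SAM but 2.06 and 2.41 CPM in kn1-e1 SAM, within the range of 0.482 to 2.61 CPM of all other libraries, and it passed none of the 4 comparisons. GRMZM2G312661, GRMZM2G052902, GRMZM2G178289 and GRMZM5G829897 each passed 3 of the 4. For GRMZM2G312661 the missing call was against kn1-e1 tassel, where 1 library held 10.4 CPM beside 4.98 and 3.38 CPM in the others. For GRMZM2G052902 and GRMZM2G178289 it was against kn1-e1 ear (edgeR adjusted p = 0.06 and 0.074), and for GRMZM5G829897 against homozygous leaf (0.082).

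Between kn1-e1 and sibling SAM the median log2 difference of the members was -0.06. This comparison uses the libraries that chose the members for being high, so it is a description only. Of the 150 genes, 4 were called lower and 0 higher (of all genes 0.12% and 0.0434%), and these 4 were the heat shock genes, at log2 differences of -1.62 (hsp18f), -1.54 (Hsp70), -1.42 (hsp70-5) and -1.28 (hsp101). With DESeq2 the count was also 4, but hsp18f was not called and GRMZM2G125529 was. Without sibling SAM replicate 2 the count was 24 in place of 4, and 18 members had an unadjusted p under 0.05 in edgeR with all libraries. The SAM genotypes did not overlap for 50 members, 38 lower and 12 higher in kn1-e1, against 19.4 and 14.6% of all genes, and overlapped for 100. The largest decrease without overlap was in GRMZM2G054267, at 8.93 and 1.56 CPM in sibling SAM and 0.825 and 1.10 CPM in kn1-e1 SAM, and rests on sibling replicate 1. The largest increases were in GRMZM2G026976 (2.91 and 3.24 CPM against 4.30 and 4.25 CPM), GRMZM2G459645, GRMZM2G147241, CKX6 and GRMZM2G149073, none above 0.50 in log2.

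Homozygous and heterozygous Kn1-N leaf are both outside the rule, so here the members could be tested. In the edgeR fit 16 members were higher and 1 was lower in homozygous leaf, against 1.65 and 2.33% of all genes, and 38 had an unadjusted p under 0.05. The filter on low counts used all 11 libraries of this fit, so members nearly absent from leaf were tested because of levels elsewhere. In the fit of the leaf libraries alone 101 of the 150 passed it, and GRMZM2G399072, 1 of the 17 called, did not. The leaf genotypes did not overlap for 55 members higher and 18 lower in homozygotes, against 21.0 and 29.6% of all genes. The median log2 difference was 0.19 for the members and -0.00 for all genes, and all these levels remained far below the SAM for most genes. The count depended on single libraries. It was 6 without homozygous replicate 1, 4 without homozygous replicate 2 and 7 without heterozygous replicate 1, and 3 of the 17 genes kept their call under each of 16 alternative settings.

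These 3 were hsp18f, GRMZM2G147241 and GRMZM2G008234. For hsp18f the difference was 2.96 ± 0.37 in log2 (edgeR adjusted p = 0.00031, at most 0.0139 in the alternatives). For GRMZM2G147241, with 23 counts in homozygous and none in heterozygous leaf, it was at least 8.51-fold (adjusted p = 0.0015, at most 0.0268). GRMZM2G008234 stood at 41.6 and 37.2 CPM in homozygous, 24.0 and 26.9 CPM in heterozygous and 22.2 and 28.6 CPM in wild-type leaf, a difference of 0.65 ± 0.10 (adjusted p = 0.0017, at most 0.0481). In SAM GRMZM2G008234 held 184 to 205 CPM, and in tassel and ear 33.0 to 60.0 CPM.

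Next in p came GRMZM2G111436 and GRMZM2G061499. GRMZM2G111436 rose by 2.30 ± 0.40 in log2 (edgeR adjusted p = 0.0037), from 0.195 and 0.194 CPM in heterozygous to 0.907 and 1.02 CPM in homozygous leaf, beside 49.9 to 65.0 CPM in SAM. GRMZM2G061499 rose by 2.52 ± 0.45 (adjusted p = 0.0046) on the counts given above. The other named genes called were bHLH173, with a difference of 0.41 ± 0.10 (edgeR adjusted p = 0.025), and Hsp70, with 1.13 ± 0.30 (0.044). Each lost its call without either homozygous replicate, and Hsp70 also lost it with DESeq2 and with the replicate block. Of the 16 alternative settings, bHLH173 kept its call in 12 and Hsp70 in 9. GRMZM2G154124, one of the last genes inside the group, was the 1 gene that fell, by -1.13 ± 0.25 (edgeR adjusted p = 0.017), from 3.17 and 3.58 CPM to 1.81 and 1.26 CPM. It kept its call in 13 of the 16 alternative settings. All 4 heat shock genes had both homozygous libraries above both heterozygous ones, and of the 14 tested genes of the heat shock list 5 were higher in homozygous leaf and 0 lower (1.65 and 2.33% of all genes).

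In the remaining comparisons 1 side had chosen the members, so the counts given are a description and not a test of the members. In homozygous against wild-type leaf, 101 members passed the filter on low counts, of which 27 were called higher and 1 lower (of all genes 9.16 and 9.59%), and in heterozygous against wild-type leaf 0 were called either way (0.127 and 0.0181%), with 10 at an unadjusted p under 0.05 in edgeR. In kn1-e1 against sibling ear, 128 passed, of which 30 were higher and 12 lower (8.21 and 10.4%). In kn1-e1 against sibling tassel, 120 passed, of which 12 were higher and 3 lower (2.34 and 5.55%). Low levels in the wild-type and sibling groups were part of how the members were chosen, and nothing is read from these counts or from those that follow. Homozygous leaf lay above wild-type leaf without overlap for 61 members (27.2% of all genes), and kn1-e1 ear above sibling ear for 65 (39.9%).

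Some members lie next to each other in the gene order of the assembly Zm-B73-REFERENCE-NAM-5.0, which need not be that of the counts. On chromosome 3, a1 and sh2 are 3 genes apart, a linkage long known in maize. On chromosome 4, GRMZM2G125529 is next to GRMZM2G062009, which is 2 genes from GRMZM2G459645. Their levels did not run in parallel: GRMZM2G459645 had 1091 to 1714 counts in SAM and GRMZM2G062009 had 58 to 100, whereas GRMZM2G125529 had 190 and 68 in sibling SAM and 35 and 46 in kn1-e1 SAM. The other close pairs were GRMZM2G147241 with GRMZM2G147268 on chromosome 2 (2 apart), GRMZM2G166094 with GRMZM2G403719 on chromosome 5 (5 apart) and GRMZM2G149073 with GRMZM2G459503 on chromosome 7 (1 apart).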

How the data were processed

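RNA was isolated with Trizol and sequenced from TruSeq libraries, per the labels' protocols. The kit does not mark strand, so reads where genes on opposite strands overlap cannot be told apart. How such reads were counted is not given. The authors deposited 1 table of raw counts per gene, with 1 column per library. CASAVA 1.8, TopHat 1.2.0, HTSeq and DESeq 1.4.1 are listed in the submitters' processing notes without role or order, and neither genome build nor annotation was stated: each is not given in the sources used here.

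Gene names were looked up in a RefSeq gene table (assembly Zm-B73-REFERENCE-NAM-5.0), where 18775 identifiers (47.3%) had a match. Tests used edgeR 4.0.16 in R 4.3.3 with quasi-likelihood fits and TMM factors, on genes that passed filterByExpr (minimum count 10, total 15). A call is an adjusted p (Benjamini-Hochberg, over every gene in the fit) under 0.05. One fit held the 11 libraries the rule did not use, with 6 residual degrees of freedom. SAM (4 libraries), tassel, ear and leaf were fitted apart, for description only. Standard errors are approximate, as the log2 difference divided by the root of F. Intervals and floors (3 counts over the group) cover counting error only. Where labels do not say that pools came from separate plants, p-values measure only the spread between libraries.

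The members, gene lists and tests were chosen with earlier results of these data known. Genes named are those of the 20 highest scores, those with a name or in a list, the 5 largest changes each way between SAM genotypes, the 5 smallest p between homozygous and heterozygous leaf, those around the last score, and kn1. The rule allowed values per library for up to 30 members, named genes first. Some named genes are given by range so that unnamed genes of high score could be shown. The 4 genes that differ most between tassel and ear, the unnamed genes without all 4 calls and close neighbours fall partly outside the rule and were chosen after their values were seen.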

Additional observations from a re-analysis of the deposited data

Results flagged for a closer look

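In some of the genes named here the kn1-e1 minus sibling difference had opposite signs in the SAM and in an inflorescence. The libraries did not overlap in either tissue. Of all genes, 19.4% were lower and 14.6% higher in kn1-e1 than sibling SAM without overlap. In ear 39.9% were higher and 22.2% lower, and in tassel 15.2% were higher and 12.4% lower. How many of all genes had opposite signs in this way was not counted. GRMZM2G125529 was named for its large decrease in kn1-e1 SAM without overlap, so its SAM sign was set by how it was picked. The difference between tissues was not tested. The members were chosen for high levels in sibling SAM and low levels in sibling tassel and ear, which itself favours a negative value in SAM and a positive one in the inflorescences, so nothing is read from the signs. Several SAM values were also no larger than about their SE, which was 0.10 for te1, 0.13 for zmm19 and 0.11 for mlo3. Sibling tassels and ears were longer than mutant ones. All values are log2 differences. In ear against SAM they were 1.31 and -1.62 for hsp18f, 1.65 and -1.54 for Hsp70, and 1.53 and -1.67 for GRMZM2G125529. For hsp70-5 they were 0.44 in tassel and 1.06 in ear against -1.42 in SAM. In the regulators, te1 had 0.48 in tassel and 0.47 in ear against -0.09 in SAM, ub3 had 0.79 and 0.44 against -0.37, and zmm19 had 1.52 in ear against -0.05. In the enzymes, a1 had 0.82 in tassel and 0.39 in ear against -0.22, and CKX6 ran the other way with -0.70 in tassel against 0.31 in SAM. For mlo5, mlo3 and NR the values in ear were 0.48, 1.5 and 1.27 and those in SAM -0.22, -0.12 and -0.30.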

How the results depend on the processing

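The counts of members higher in kn1-e1 SAM stayed within 1.5 times of those reported under every alternative run (other normalizations, DESeq2, no filter on low counts, a replicate block and each library left out); the count in all 4 comparisons ran from 138 to 144. Scaling by library totals alone put the median of all genes at 0.11 in log2 between kn1-e1 SAM and homozygous leaf, with 145 members higher and 1 lower. The count between homozygous and heterozygous leaf ran from 4 to 19 when 1 library was left out. The count between kn1-e1 and sibling SAM was 4, and was 7 without the filter and 5 to 24 with 1 library left out. Replicate numbers did not pair the libraries (correlations of -0.117 to 0.0448), and that count was 6 with the replicate block; with the numbers crossed, an alternative chosen after seeing the data, it was 8. With leaf left out of the rule 87 of the 150 genes were kept, and under the other settings of the rule 101 to 148. Of 4479 alternative values for named genes, 38 lost their call, 34 of them between the leaf genotypes, 22 gained one and 0 reversed. Low counts outside the SAM limit the genes of highest score, whose folds are bounds or wide ratios.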
